A study of Mus musculus with 6 samples.

Results

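Mitochondria take in nearly all of their proteins from the cytosol and change shape by fusing and dividing. The genes described here encode that machinery in mouse oocytes, together with 3 proteins that keep mitochondrial DNA. Members were the rows of the authors' deposited table whose symbol starts with Timm, Tomm, Chchd or Mfn, or is Opa1, Dnm1l, Fis1, Mff, Tfam, Polg or Polg2. This gave 35 of the 10896 genes in the table. The symbol rule also took in Mfng, a Golgi enzyme that adds sugars to Notch receptors, which is no mitochondrial gene. It was kept in the counts and is named apart. The terms for cell compartments in the authors' deposited table placed 28 of the 35 genes (80%) in mitochondria, against 3.38% of all genes. Those without such a term were Mfng, Timmdc1 and all 5 Chchd genes.

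The oocytes still had their germinal vesicle, the nucleus of arrested prophase, and came from (C57BL x CBA) F1 mice in both groups. In the in vitro group, 3 samples of 50 oocytes had grown in follicles that were freed with collagenase from the pooled ovaries of 2 to 5 females, aged 10 to 12 days. These follicles were kept on membrane inserts in medium that held follicle stimulating hormone at 0.01 µg/ml, 5% serum and an insulin, transferrin and selenium supplement. The in vivo group held 3 samples of 50 oocytes, released by needle from ovaries of females 7 to 11 weeks old into a medium with dbcAMP. Culture and donor age differ together between the groups and cannot be told apart. The labels do not say whether replicate samples had cultures or animals of their own, so p-values measure the spread between samples only.

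The deposited table gives each gene a mean of normalised reads per group, a log2 ratio, a gene length and a PPEE. The PPEE was read as a posterior probability of equal expression, a meaning that its name and range fit but no source at hand states. A gene was called when it lay below 0.05. It is not a p-value. Whole reads of single libraries were recovered from the decimals of the means for 8461 genes, 31 members among them, and each library held between 1044605 and 1571474 such reads. The libraries are named A, B and C within each group by the size of their scale factor, since nothing ties them to sample numbers. Normalised reads below are recovered reads divided by that factor, with the SD over the 3 libraries of a group. All 12 listed oocyte markers were in the table, with summed means of 125494 in vitro and 177425 in vivo. Called lower in vitro were 3 of them, Bmp15, Kit and Nlrp5. Dazl, Oosp1 and Mos had higher values there and the remaining oocyte markers lower ones, none of them called. In the whole table, 6.75% of genes were called higher in vitro and 8.31% lower. Among 16 markers of granulosa and cumulus cells, 9 were in the table, with summed means of 467 in vitro and 292 in vivo. Of these, 3, Fshr, Inha and Inhba, were called higher in vitro. Cyp19a1, Hsd17b1 and Ptgs2 also had higher values there, while Gja1, Kitl and Nr5a2 had lower ones, none of them called. Of theca and luteal markers 2 of 6 were in the table, summing to 33.8 in vitro and 13.1 in vivo. Hsd3b1 was called higher in vitro, while Cyp11a1 had a lower value there and was not called. Of blood cell markers 1 of 5 was in the table, at 14.1 in vitro and 10.8 in vivo. The part of these cells in the results below was not tested.

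Protein import starts at the outer membrane, where the TOM complex recognises precursors and passes them through a pore. Proteins with a cleavable presequence then cross the inner membrane through the TIM23 complex, while small chaperones of the space between the membranes guide carrier and other hydrophobic proteins. Mitofusins join outer membranes, Opa1 joins inner membranes, and the GTPase Drp1, encoded by Dnm1l, divides the organelle once adaptors have brought it to the surface. Oocytes are rich in mitochondria, and the embryo inherits its mitochondria from the egg.

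Few of these genes were called, and they lay in both directions. By the PPEE in the authors' deposited table, 4 were called higher in vitro and 2 lower, against a background of 6.75% of all genes called higher and 8.31% called lower. The higher ones were Mff, Tomm20, Timm23 and Tomm22, and the lower ones Opa1 and Tomm34. Their gene identifiers in the table are 75734 for Mff, 67952 for Tomm20, 53600 for Timm23, 223696 for Tomm22, 74143 for Opa1 and 67145 for Tomm34. Together they made 17.1% of the members, close to the 15.1% called among all genes. Values were higher in vitro for 28 members and lower for 7, whereas 51.1% of all genes had a higher value in vitro. The median log2 change, in vitro over in vivo, was 0.35 for the members, 0.36 without Mfng, and 0.02 for all genes. Most higher members were short genes, and length is taken up after the single genes.

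**Figure D1:**
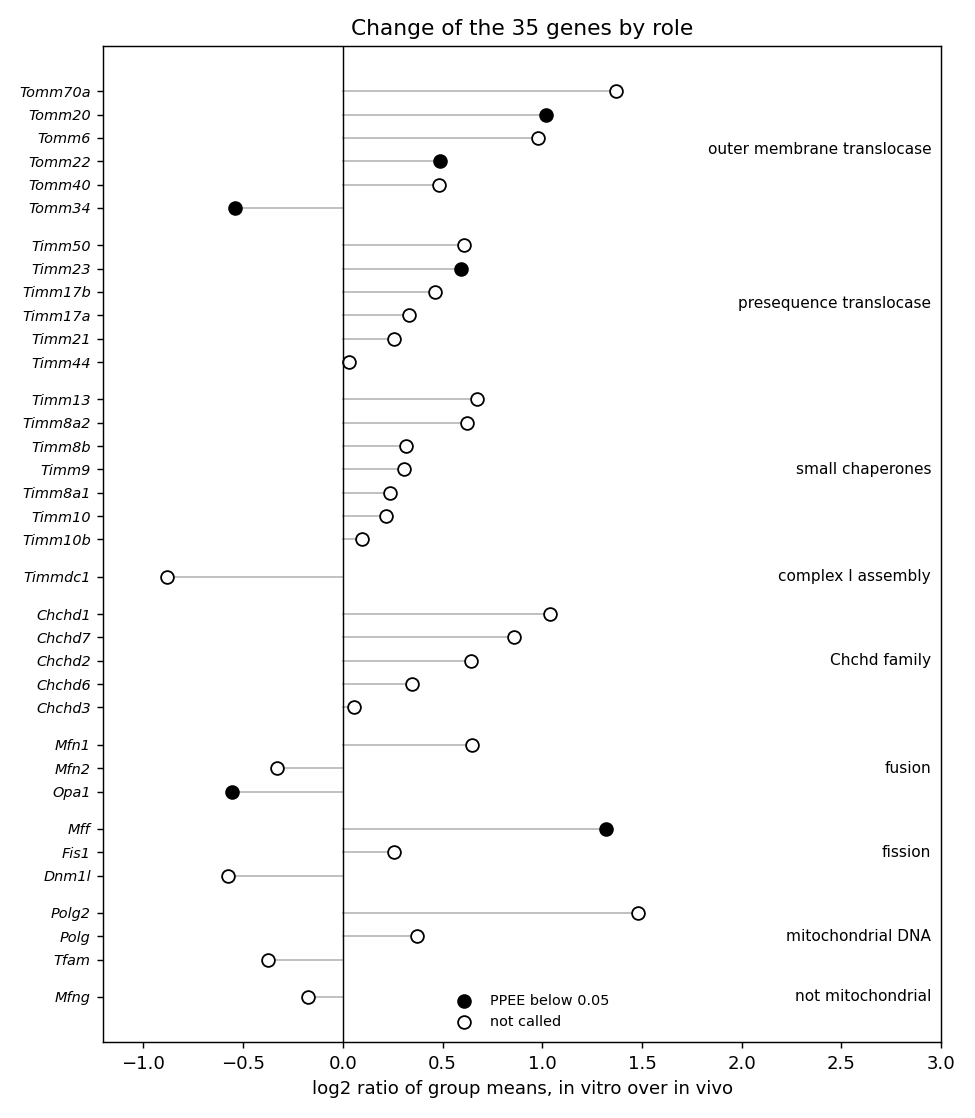
The log2 ratio of group means, in vitro over in vivo, from the authors' deposited table is plotted along the horizontal axis for each of the 35 genes, grouped by role, with filled circles for PPEE below 0.05. Filled circles lie to the right for Mff, Tomm20, Timm23 and Tomm22 and to the left for Opa1 and Tomm34.

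In recovered reads, limma voom with Benjamini-Hochberg adjustment over 8461 genes called 2 of the 31 members higher in vitro, Mff and Tomm20, and 2 lower, Opa1 and Tomm34. The background was 5.45% of genes called higher and 4.81% called lower, 10.3% in all. At an unadjusted p below 0.05 there were 8 higher and 2 lower. Among all 8461 recovered genes, 1390 were higher and 1151 lower at that threshold, 30% in all. The libraries of both groups did not overlap for 8 members higher and 5 lower in vitro, where 18.3% and 16% of all recovered genes stood apart in those directions, 34.3% in all. For each of these 13 members the exact permutation test over 6 libraries gave its smallest 2-sided p of 0.1. That value follows from the lack of overlap and adds nothing to it. In bulk samples such as these, fewer oocytes that hold a transcript and less of it per oocyte cannot be told apart.

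Both presequence receptors of the outer membrane translocase, Tomm20 and Tomm22, were called higher in vitro by the PPEE. Tomm20, the receptor for presequences, gave 71.7, 58.0 and 89.3 normalised reads in the in vitro libraries, in the order A, B and C used throughout, against 38.8, 26.6 and 41.8 in the in vivo libraries. Every in vitro library lay above every in vivo one. The means were 73.0 ± 15.7 in vitro and 35.7 ± 8.06 in vivo (SD, n = 3 a group). Limma voom gave a log2 change of 1.03 with a standard error of 0.30 (adjusted p = 0.0449), and its PPEE was 0.000242 by the authors' deposited table. With trimmed mean scaling the adjusted p was 0.0504, and it lay between 0.0699 and 0.185 without in vitro library C or any single in vivo library.

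Tomm22, the central receptor that ties the others to the pore, had 544, 742 and 617 normalised reads in vitro and 436, 483 and 437 in vivo. Again the groups did not overlap, and in vitro library B was the highest of the 6. Its log2 change was 0.47 with a standard error of 0.15 and did not pass (adjusted p = 0.0613, limma voom), while its PPEE was 0.0333 by the authors' deposited table. Tomm70a, the receptor for carrier precursors, was a rare transcript, with 19, 18 and 18 whole reads in vitro and 7, 9 and 7 in vivo. Scaled, the in vitro libraries averaged 19.5 ± 2.54 and the in vivo ones 7.18 ± 1.32 normalised reads (SD, n = 3 a group), without overlap. Its log2 change of 1.40 with a standard error of 0.46 missed the threshold (adjusted p = 0.0666, limma voom), and the authors' deposited table lists its PPEE as exactly 1. The authors' deposited table has that value for 6 members and 14.9% of all genes.

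The pore and its small partner were not called by either test. Tomm40, the pore itself, had 101, 122 and 74.4 normalised reads in vitro, against 87.3, 73.5 and 52.0 in vivo, and the groups overlapped (adjusted p = 0.253, limma voom). Tomm6, a small subunit that helps to assemble the complex, had 13.8, 28.0 and 19.9 normalised reads in vitro against 11.3, 8.86 and 10.2 in vivo (adjusted p = 0.190, limma voom). Its groups did not overlap, but it rested on between 9 and 27 whole reads a library. Tomm34 is no part of the membrane complex. It is a cytosolic partner of the chaperones Hsp70 and Hsp90 that deliver precursors, and it was the one Tomm gene with a lower value in vitro. It had 478, 318 and 377 normalised reads in vitro and 593, 580 and 534 in vivo. The lowest in vivo library lay above the highest in vitro one, and the log2 change was -0.56 with a standard error of 0.16 (adjusted p = 0.0476, limma voom). By the authors' deposited table, Tomm34 had a PPEE of 0.00290. Leaving out any library other than in vitro library A put its adjusted p between 0.0749 and 0.156.

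**Figure D2:**
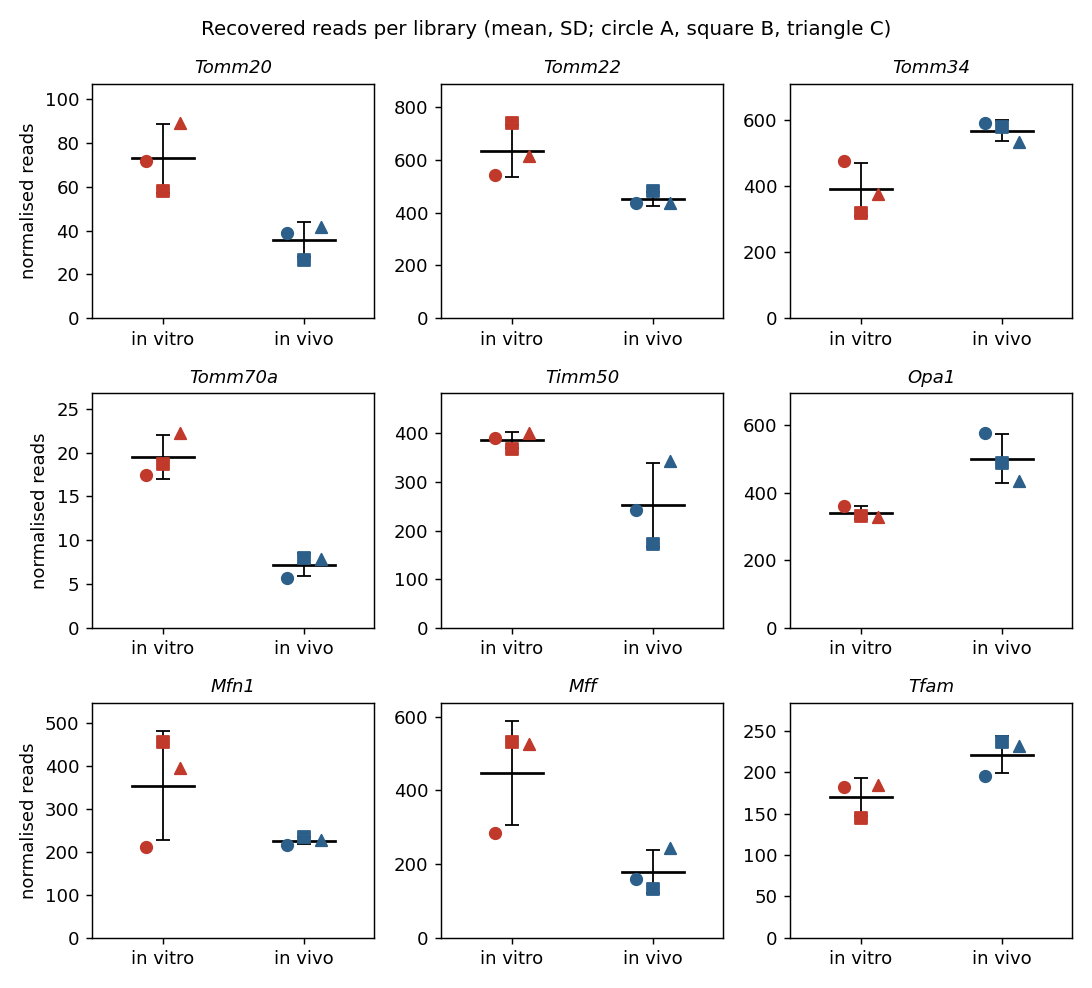
Normalised reads recovered for each library are plotted for 9 genes, in vitro left of in vivo, with circles, squares and triangles for libraries A, B and C, a bar for the mean and whiskers for the SD over 3 libraries. Groups stand apart in Tomm20, Tomm22, Tomm34, Tomm70a, Timm50, Opa1, Mff and Tfam, while in vitro library A of Mfn1 lies below the in vivo libraries.

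Promoters of 5 of the 6 called genes are shown because they hold short motifs of regulators that nuclear genes for mitochondrial proteins are known to share. NRF1 and the ETS factor GABP act at many such genes. The sequences are RefSeq's, on build GRCm38.p6, from 250 bases before to 50 after the first listed start, and promoters of 31 members were matched by gene identifier. Capitals mark matches on either strand. They are the core of the NRF1 motif in Tomm20 and Opa1, and CCGGAAG, an ETS core, in the others, so that no match of one motif overlaps one of the other in them.
Tomm20 promoter, chr8:126945872-126946171, minus strand: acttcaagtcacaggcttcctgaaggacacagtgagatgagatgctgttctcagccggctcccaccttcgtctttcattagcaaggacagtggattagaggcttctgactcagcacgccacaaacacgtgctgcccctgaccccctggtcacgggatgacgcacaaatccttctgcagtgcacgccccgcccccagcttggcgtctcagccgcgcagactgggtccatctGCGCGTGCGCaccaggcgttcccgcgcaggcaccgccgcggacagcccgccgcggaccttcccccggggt
Tomm22 promoter, chr15:79670618-79670917, plus strand: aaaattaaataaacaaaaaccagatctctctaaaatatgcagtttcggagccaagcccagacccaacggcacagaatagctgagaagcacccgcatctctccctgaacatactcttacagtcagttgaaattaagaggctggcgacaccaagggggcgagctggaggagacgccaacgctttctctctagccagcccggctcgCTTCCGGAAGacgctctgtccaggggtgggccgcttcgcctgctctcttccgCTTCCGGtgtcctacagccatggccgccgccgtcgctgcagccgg
Timm23 promoter, chr14:32201842-32202141, minus strand: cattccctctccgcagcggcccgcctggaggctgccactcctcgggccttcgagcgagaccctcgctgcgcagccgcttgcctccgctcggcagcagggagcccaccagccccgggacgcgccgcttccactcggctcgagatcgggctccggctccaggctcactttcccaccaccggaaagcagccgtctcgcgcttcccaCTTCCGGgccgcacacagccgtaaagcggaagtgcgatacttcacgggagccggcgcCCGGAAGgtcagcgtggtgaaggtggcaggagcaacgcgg
Opa1 promoter, chr16:29579084-29579383, plus strand: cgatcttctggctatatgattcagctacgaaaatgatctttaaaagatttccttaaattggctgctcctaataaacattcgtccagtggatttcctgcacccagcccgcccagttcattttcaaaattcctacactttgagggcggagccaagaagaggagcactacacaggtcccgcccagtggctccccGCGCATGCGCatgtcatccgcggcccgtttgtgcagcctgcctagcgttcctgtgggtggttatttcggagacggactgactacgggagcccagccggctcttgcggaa
Tomm34 promoter, chr2:164071120-164071419, minus strand: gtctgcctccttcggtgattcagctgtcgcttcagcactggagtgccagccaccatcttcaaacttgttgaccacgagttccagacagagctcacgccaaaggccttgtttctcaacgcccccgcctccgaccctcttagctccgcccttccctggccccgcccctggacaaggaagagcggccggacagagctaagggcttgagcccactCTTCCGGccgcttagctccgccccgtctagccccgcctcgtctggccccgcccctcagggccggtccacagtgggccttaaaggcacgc
The NRF1 core was found in Tomm20, higher in vitro, and in Opa1, lower in vitro, and among the other members in Timm8b. These are 3 of 31 member promoters (9.68%), against 984 of the 8798 promoters of genes in the table (11.2%). The ETS core lay in 16 of 31 member promoters (51.6%), against 19.2% of all 8798. It stood in Tomm22 at 3 positions, 2 of which overlap, in Timm23 at 2 and in Tomm34 at 1, and in neither Mff, Tomm20 nor Opa1. Both motifs occurred in promoters of genes called in either direction. A match is only a string of letters and shows no binding. The ETS search was added after the data were seen.

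At the inner membrane, all 6 measured genes of the presequence translocase had higher values in vitro, and 1 was called. Timm23, the channel, averaged 1051 normalised reads in vitro against 697 in vivo by the authors' deposited table, which is 1.51-fold higher in vitro (PPEE 0.00190). Its in vivo libraries held 691, 662 and 739 normalised reads, and the in vitro mean was above the limit up to which reads could be recovered. Timm50, the receptor that hands presequences to the channel, followed with 390, 368 and 402 normalised reads in vitro against 243, 173 and 344 in vivo. The groups did not overlap, and the spread lay mostly among the in vivo libraries, with an SD of 17.2 in vitro and 86.4 in vivo. Timm50 just missed both thresholds, with an adjusted p of 0.0547 by limma voom (log2 change 0.68, standard error 0.21) and a PPEE of 0.0503 by the authors' deposited table.

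Other subunits of this channel differed less. Timm17a and Timm17b are alternative partners of Timm23, and Timm17a had the higher level per kb of gene length. From the authors' deposited table, Timm17a had 1295 mean normalised reads per kb in vitro and 1030 in vivo (PPEE 0.781). From the authors' deposited table, Timm17b had 49.8 per kb in vitro and 36.1 in vivo (PPEE 0.544). Timm21, which links the channel to respiratory complexes, had 122, 151 and 129 normalised reads in vitro and 109, 121 and 106 in vivo. These libraries did not overlap, by a narrow gap (adjusted p = 0.428, limma voom). Timm44, which holds the import motor at the channel, had 434, 437 and 406 normalised reads in vitro and 403, 399 and 447 in vivo. The log2 change of Timm44, 0.03, was the smallest of the 35 genes by the authors' deposited table.

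None of the 7 small chaperones was called, by the PPEE or by limma voom, although each had a higher value in vitro. At an unadjusted p below 0.05 none passed either, the lowest being 0.109 for Timm13. Without in vitro library B the means of Timm8b, Timm10 and Timm10b were lower in vitro. Timm9, which forms a ring with Timm10, was the most abundant per kb. It had 517, 822 and 541 normalised reads in vitro and 555, 500 and 463 in vivo, so that in vitro library B alone lay above all in vivo libraries. Timm8b, a partner of Timm13, had 53.3, 129 and 63.3 in vitro and 88.1, 61.1 and 47.4 in vivo. In Timm8a2 the same library stood at 86.0, against 34.0 and 37.2 in in vitro libraries A and C and 31.5, 33.7 and 36.1 in vivo. Timm8a2 and Timm8a1 are close copies of each other, how shared reads were counted is not given in the sources used here, and both values are therefore uncertain. In Timm13, too, in vitro library B was the highest, with 87.1 against 49.6 and 37.2 in libraries A and C, beside 45.3, 37.2 and 26.0 in vivo. Timm8a1, Timm10 and Timm10b averaged 144, 46.7 and 13.0 normalised reads in vitro against 122, 40.1 and 12.1 in vivo, with overlapping libraries. Timmdc1 shares the prefix but helps to assemble respiratory complex I. It was rare, with 9, 8 and 4 whole reads in vitro and 18, 16 and 11 in vivo. The libraries of Timmdc1 did not overlap and were lower in vitro, and the log2 change of -0.89 with a standard error of 0.49 did not pass (adjusted p = 0.239, limma voom).

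**Figure D3:**
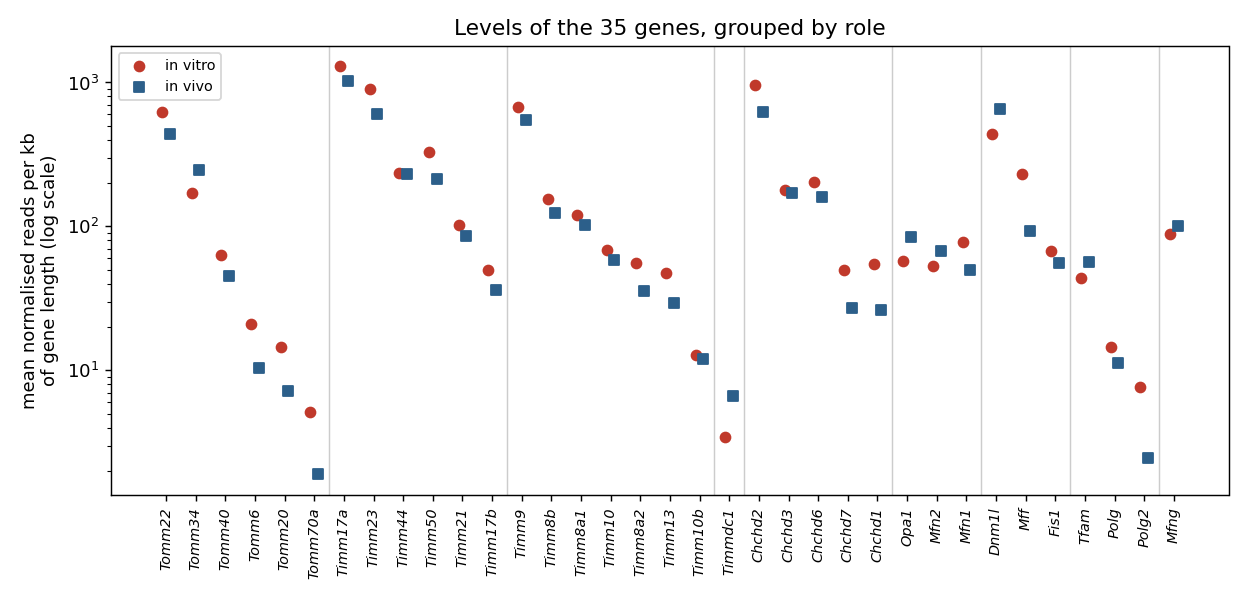
Group means from the authors' deposited table per kb of gene length are plotted on a log scale for the 35 genes, ordered by role, with circles for in vitro and squares for in vivo. Timm17a leads with 1295 in vitro and 1030 in vivo, and Tomm70a and Polg2 lie lowest in vivo at 1.90 and 2.47.

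The 5 Chchd genes, whose proteins share a fold held by paired cysteines, had higher values in vitro, and none was called by either test. Chchd2, a stress responsive protein that also acts on transcription, averaged 879 normalised reads in vitro against 563 in vivo by the authors' deposited table (PPEE 0.921). Chchd1, a subunit of the mitochondrial ribosome, had 24.8, 47.7 and 29.8 normalised reads in vitro and 24.3, 13.3 and 11.3 in vivo. The groups were apart by a small step between in vitro library A and in vivo library A (adjusted p = 0.123 and unadjusted p = 0.0297, limma voom). Chchd3 and Chchd6 belong to the complex that shapes cristae. Chchd3 had 259, 254 and 252 normalised reads in vitro and 230, 256 and 250 in vivo, while Chchd6 had 187, 284 and 216 in vitro and 187, 200 and 154 in vivo. Both overlapped between groups, as did Chchd7 with 27.6, 52.9 and 19.9 in vitro and 27.5, 12.4 and 14.7 in vivo. At an unadjusted p below 0.05, limma voom had 1 of the 4 recovered Chchd genes, Chchd1.

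Genes of fusion and fission held 2 of the called changes, in opposite directions. Opa1, the GTPase that fuses inner membranes and keeps cristae tight, had 362, 331 and 329 normalised reads in vitro and 578, 488 and 434 in vivo. All in vivo libraries lay above all in vitro ones, and the in vitro values were close together, with an SD of 18.7 against 72.9 in vivo. The log2 change was -0.55 with a standard error of 0.16 (adjusted p = 0.0443, limma voom), and its PPEE was 0.00121 by the authors' deposited table. Without in vitro library B or C or in vivo library A or B, its adjusted p lay between 0.0961 and 0.176.

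Mff, the adaptor that brings Drp1 to the outer membrane, had 284, 530 and 525 normalised reads in vitro and 159, 132 and 244 in vivo. In vitro library A was well below the other in vitro libraries, yet above all in vivo ones. The log2 change of 1.31 with a standard error of 0.27 had the lowest adjusted p of the members (0.0160, limma voom), and its PPEE was 0.0105 by the authors' deposited table. It kept its call without in vitro library A, in vitro library B or in vivo library C, and the adjusted p was 0.0800, 0.0856 and 0.0884 without in vitro library C, in vivo library A and in vivo library B. Within each library, reads of Mff divided by those of Opa1 gave 0.784, 1.60 and 1.60 in vitro and 0.276, 0.270 and 0.562 in vivo. This ratio needs no scaling between libraries. Its groups could not overlap, because neither gene overlapped and the genes differed in opposite directions. It was formed after both genes had been seen to differ.

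The partners of Opa1 and Mff were not called. Mfn1, a mitofusin, had 212, 455 and 396 normalised reads in vitro and 217, 234 and 228 in vivo, so in vitro library A lay with the in vivo libraries and the others above them. Limma voom gave Mfn1 a log2 change of 0.55 with a standard error of 0.25 (adjusted p = 0.153), and without in vitro library A 0.92 (adjusted p = 0.000803). Mfn2, the other mitofusin, lay the opposite way, with 244, 225 and 232 normalised reads in vitro and 273, 353 and 254 in vivo (log2 change -0.32, standard error 0.18, adjusted p = 0.245, limma voom). Dnm1l was the most abundant gene of this group per kb, with 439 mean normalised reads per kb in vitro and 654 in vivo by the authors' deposited table (PPEE 0.125). Fis1, another outer membrane protein of fission, had 46.9, 72.6 and 45.9 normalised reads in vitro and 54.2, 47.8 and 36.1 in vivo, with overlap.

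Neither Tfam nor the DNA polymerase genes were called, by the PPEE or by limma voom after adjustment. Tfam, which packs mitochondrial DNA and starts its transcription, had 182, 144 and 185 normalised reads in vitro against 195, 236 and 232 in vivo. The groups did not overlap, but in vitro library C and in vivo library A were close (log2 change -0.37, standard error 0.19, adjusted p = 0.199, limma voom). Polg, the catalytic subunit of the polymerase, had 57.9, 90.2 and 53.3 in vitro and 42.8, 62.9 and 49.7 in vivo, with overlap (adjusted p = 0.424, limma voom). Polg2, its accessory subunit, had the largest log2 change of the 35 genes by the authors' deposited table, at 1.48. It rested on 19, 5 and 9 whole reads in vitro and 3, 2 and 6 in vivo. Limma voom gave Polg2 an adjusted p of 0.142 and an unadjusted p of 0.0384. Mfng, the Golgi gene, had 174, 171 and 145 in vitro and 207, 188 and 159 in vivo, with overlap.

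Gene length moved with the direction of change, in the members and in the table as a whole. All 20 members of at most 1500 bases had higher values in vitro in the authors' deposited table, against 8 of the 15 longer ones. The median log2 change was 0.42 for these short members and 0.03 for the longer ones. Across the whole table, genes of at most 1500 bases also lay higher in vitro, with a median of 0.27 over 1811 genes, while the 9085 longer genes had a median of -0.04. The members are short, with a median length of 1315 bases against 2847 for all genes. Spearman's rho between length and log2 change was -0.25 over the 35 members and -0.16 over all 10896 genes, given as a description across genes that share libraries.

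**Figure D4:**
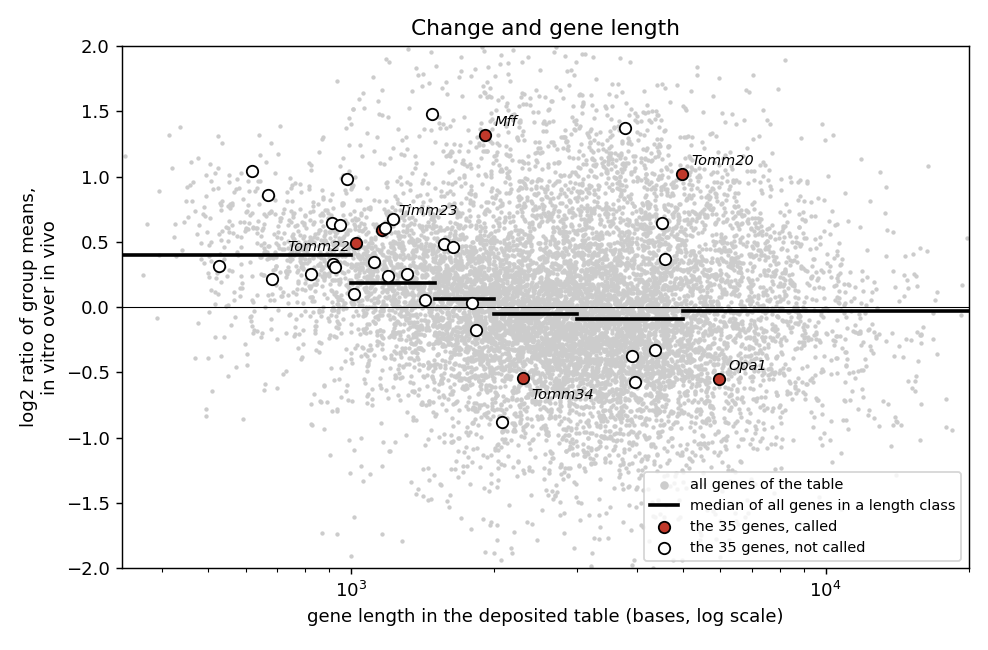
Gene length on a log scale is plotted against the log2 ratio of group means, in vitro over in vivo, both from the authors' deposited table, with gray points for all genes inside the plotted range, bars for the median of all genes in 6 length classes and circles for the 35 genes, filled where called. The bars start at 0.40 for genes up to 1000 bases and lie at or below 0 from 2000 bases, and all 20 members up to 1500 bases lie above 0.

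In vitro library B held the highest normalised value of the 6 libraries for 19 of 31 recovered members, and for 31.3% of all recovered genes. Against the mean of the in vivo libraries, the median log2 difference of the 17 short recovered members came to 0.13 for library A, 0.69 for library B and 0.20 for library C of the in vitro group. The 1486 recovered genes of at most 1500 bases gave 0.13, 0.53 and 0.10 there. Library B thus stood apart for short genes in general. The 14 longer members also lay higher there, at 0.38, while the 6975 longer genes stood at -0.04. Without in vitro library B, the median log2 change of the 31 recovered members was 0.14 in place of 0.33, and 22 of them (71%) were higher in vitro against 52% of all recovered genes. The part of gene length and of this library in the values of the members was not tested. Without library B, limma voom gave an adjusted p of 0.0480 for Mff, 0.0497 for Tomm20, 0.0961 for Opa1 and 0.138 for Tomm34.

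**Figure D5:**
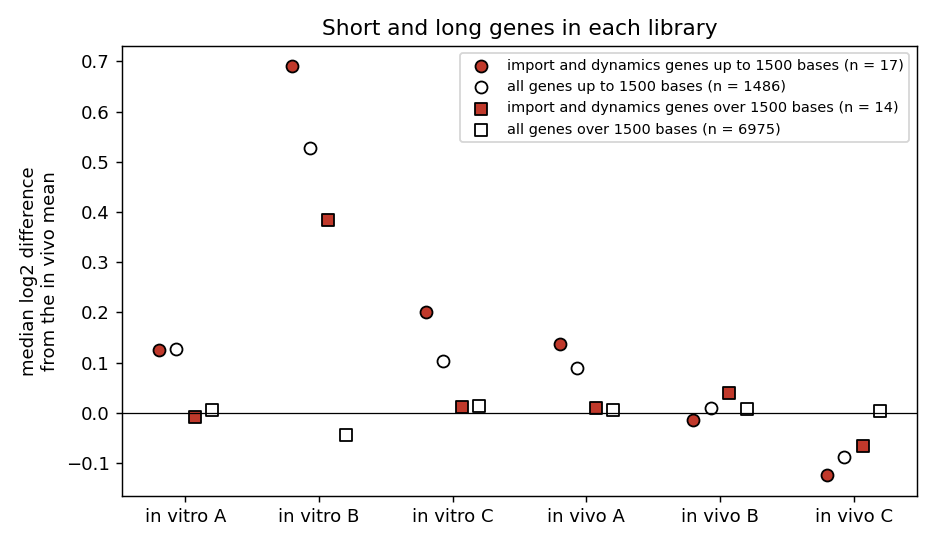
For each of the 6 libraries, the median log2 difference from the mean of the in vivo libraries is plotted for short and long genes, with filled symbols for the import and dynamics genes and open ones for all recovered genes. In vitro library B stands out for short genes, at 0.69 and 0.53, and the longer genes of the whole table lie near 0 in every library.

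Values of genes for mitochondrial ribosomal proteins and complex I also lay mostly higher in vitro. Their shares of calls in either direction lay below that of the table, while the ribosomal share called higher lay above it. Genes of mitochondrial ribosomal proteins, 74 in the table, had a higher value in vitro in 86.5%, against 51.1% of all genes, and a median log2 change of 0.37. By the PPEE in the authors' deposited table, 7 of them (9.46%) were called, all higher in vitro, against 15.1% of all genes called in either direction and 6.75% called higher. Among 33 genes of complex I subunits, 87.9% had a higher value in vitro and the median was 0.45. By the PPEE or limma voom, 0 were called. At an unadjusted p below 0.05, limma voom had 8 of 29 recovered ones, all higher in vitro. Among all 8461 recovered genes, 1390 were higher and 1151 lower at that threshold, 30% in all. Median lengths were 1061 bases for the ribosomal list and 693 for complex I. The difference between these lists and the import and dynamics genes was not tested.

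Further genes of import, cristae, dynamics and mitochondrial DNA were taken from a list of 71 symbols, of which 58 were in the table. They were longer, with a median of 2762 bases, and their median log2 change was 0.04. By the PPEE in the authors' deposited table, 5 were called higher in vitro and 6 lower, 19% in all against 15.1% of the table. Limma voom called 2 higher and 4 lower among the 43 with recovered reads, beside 5.45% higher and 4.81% lower among all recovered genes. The lowest adjusted p was that of Peo1, the helicase that unwinds mitochondrial DNA for copying, with 152, 123 and 108 normalised reads in vitro and 312, 269 and 290 in vivo. Its groups did not overlap, with a log2 change of -1.18 and a standard error of 0.19 (adjusted p = 0.00711, limma voom). Dna2, a nuclease of DNA copying and repair, was called lower by limma voom (adjusted p = 0.0463) and not by the PPEE.

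Genes around import were called in both directions. Agk, a lipid kinase that is also a subunit of the carrier translocase, had 320, 262 and 256 normalised reads in vitro and 448, 469 and 400 in vivo (log2 change -0.65, standard error 0.16, adjusted p = 0.0275, limma voom). Samm50, which inserts barrel proteins into the outer membrane, was 1.43-fold lower in vitro by the authors' deposited table (PPEE 0.00829). Mtx2, the partner of Samm50, was 2.67-fold higher by the authors' deposited table (PPEE 0.0399). Limma voom called neither (adjusted p = 0.0794 for Samm50 and 0.0907 for Mtx2). Xpnpep3, a peptidase that trims imported proteins, was 2.26-fold lower in vitro, and Clpx, a chaperone of the matrix protease, 1.30-fold lower by the authors' deposited table (PPEE 8.42e-08 and 0.0107). Limma voom also called Xpnpep3 (adjusted p = 0.0244) but not Clpx (adjusted p = 0.105). Phb2, a prohibitin of the inner membrane, and Dnajc11, a cristae protein, were 1.40-fold and 1.21-fold higher in vitro by the authors' deposited table (PPEE 0.0151 and 0.0459). Reads of Phb2 and Dnajc11 were not recovered, so limma voom could not test them. Hspa9, the import motor, had the highest mean of the list and had a log2 change of 0.01 by the authors' deposited table.

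Among regulators of shape and movement, Usp30 and Trak2 rose and Mief1 was called lower. Usp30, an outer membrane deubiquitinase that restrains mitophagy, had 530, 680 and 661 normalised reads in vitro and 377, 404 and 444 in vivo (log2 change 0.61, standard error 0.15, adjusted p = 0.0295, limma voom). Trak2, which couples mitochondria to motor proteins, had 93.7, 78.8 and 83.1 in vitro and 51.7, 38.1 and 21.5 in vivo (log2 change 1.23, standard error 0.31, adjusted p = 0.0295, limma voom). Mief1, which like Mff binds Drp1 at the outer membrane, had 438, 364 and 423 in vitro and 611, 648 and 479 in vivo. Its PPEE was 0.0121 by the authors' deposited table and its adjusted p 0.0570 by limma voom. The Drp1 adaptors Mff and Mief1 therefore lay on opposite sides, without overlap between groups in either gene.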

How the data were processed

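RNA of 6 samples of 50 mouse oocytes was sequenced from cDNA made and amplified out of 10 ng of total RNA, per the labels' protocols. BWA and build mm9 are named in the submitters' processing notes, with no version. For each gene and group the authors deposited 1 signal value, averaged over normalised reads of 3 samples, with scale factors not given in the sources used here. The deposited log2 ratio (in vivo over in vitro, turned round here) was recomputed from the means with 0.599 added to each. The deposited PPEE lies between 0 and 1, and the tool behind it is not given in the sources used here. Gene lengths are in bases and were not used in the deposited means.

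Each group mean adds up whole reads of 3 libraries, each times its own step. Steps were found from repeated differences between low means, and means up to 700 were solved for whole reads to 10 significant digits. A single solution was found for 95.6% of means in vitro and 95.8% in vivo. Shifted means, which should have none, gave one in 6.68% and 9.50% of cases, or 20.8% and 31.1% between means of 200 and 700. For low genes, with both means at most 50, libraries summed to between 0.931 and 1.09 times their group's average. Reads carry no molecular identifiers.

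Recovered reads were tested with limma 3.58.1 (voom, library sizes from the size factors, no covariate, 2-sided, R 4.3.3), with Benjamini-Hochberg adjusted p below 0.05 over 8461 genes. Both steps were first tested on simulated data. No count test could be run on the group means. Named with values were called members, in each role the most abundant per kb and the most changed with a mean of at least 10, all fusion, fission and DNA genes, and of the related list called genes and the most abundant. Other members were added for completeness. Members and lists were chosen with earlier results of these data known. Symbols turned into dates, 16 in all, were restored from RefSeq gene identifiers. Alternatives were stricter calls, other scaling and pseudocounts, and each library left out. Protein sequences were not used here.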

Additional observations from a re-analysis of the deposited data

How the results depend on the processing

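The median log2 change of the 35 genes stayed between 0.33 and 0.35 with pseudocounts of 0 or 1, with a mean of at least 10 or after centring, and was 0.032 in the members over 1500 bases. In the 31 recovered members it was 0.332, and 0.142 without in vitro library B, 0.222 without in vivo library C, 0.453 without in vitro library C and up to 0.455 without other single libraries. Called members higher in vitro numbered 4, and 3 with at least a 1.5-fold change. There were 2 at a PPEE below 0.01, Tomm20 and Timm23, and 2 by limma voom, Mff and Tomm20. Limma voom could not test Timm23, whose in vitro reads were not recovered. Called members lower numbered 2, and 0 with at least a 1.5-fold change, since Opa1 and Tomm34 were 1.47-fold and 1.46-fold lower. In the related list 5 were higher and 6 lower. At a PPEE below 0.01 there were 2 higher and 4 lower, and with at least a 1.5-fold change 3 higher and 3 lower. With trimmed mean scaling limma voom called 1 member higher, Mff.

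Leaving out single libraries, limma voom called between 0 and 7 members higher and between 0 and 2 lower. The 7 came without in vitro library A, and were Chchd1, Mff, Mfn1, Timm50, Tomm20, Tomm22 and Tomm70a. Counts of 0 higher came without in vitro library C, in vivo library A or in vivo library B, where 9, 7 and 4 had an unadjusted p below 0.05. Counts of 0 lower came without in vitro library B or C or in vivo library A or B, where 2 had an unadjusted p below 0.05 each time. Over all 8461 genes, calls moved too, with 461 higher and 407 lower in all libraries, and 1313 higher and 874 lower without in vitro library A. Higher and lower calls numbered 142 and 130 without in vitro library B, and 29 and 30 without in vitro library C. They numbered 7 and 24 without in vivo library A, and 17 and 43 without in vivo library B. In these 4 runs, 1922, 1938, 1971 and 1807 of all 8461 genes had an unadjusted p below 0.05 by limma voom. The cause of these shifts in calls was not tested. Among the 22 members named by the rule, none changed sign under any alternative run. Among the others, Timm8b, Timm10 and Timm10b had lower means in vitro without in vitro library B, and Timm10b also without in vivo library B. No paired analysis was possible because the deposited means and the recovered libraries carry no replicate number. Depth limits Polg2, Tomm70a, Timmdc1 and Tomm6, and members with means above 700 have no value per library.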
